A study of Mus musculus with 6 samples.

Results

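The MS4A genes examined here are 8 members of a mouse family of membrane proteins of myeloid cells, taken by gene symbol: Ms4a4a, Ms4a4b, Ms4a4c, Ms4a4d, Ms4a6b, Ms4a6c, Ms4a6d and Ms4a7. Of the 8, 7 have an entry among the 23351 genes of the expression table, and Ms4a4a was not analysed here. All 7 passed the filter on low values, a mean of at least 0.5 FPKM. The samples are repair tissue of C57BL/6 mice, made up of periosteum and quadriceps muscle from the face of an injured bone. RNA sequencing compared 3 libraries of mice given empty liposomes (Empty-lip) with 3 libraries of mice given clodronate liposomes (Clod-lip), which are taken up by phagocytic cells and kill them. The labels give no age, time or genotype, and both groups received liposomes. The family was chosen on values of this same comparison, so its differences between Clod-lip and Empty-lip are a description of what chose it and support nothing.

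MS4A proteins cross the membrane several times and share this layout with CD20, the B cell protein that gave the family its best known member. Many of them sit beside other receptors at the cell surface and tune their signals, such as the beta chain of the high affinity IgE receptor, which is Ms4a2. In macrophages, MS4A4A works with the beta-glucan receptor Dectin-1, and the human MS4A cluster is linked to microglia and to levels of the soluble receptor TREM2.

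The 7 measured members lie in a single cluster on chromosome 19, from 11321039 to 11604849 in build mm10 (GENCODE M21), a span of 284 kb. Ms4a7 (11321039 to 11336146, minus strand) is at one end and Ms4a6d (11586604 to 11604849, minus strand) at the other. Between them, all on the plus strand, come Ms4a4c (11404770 to 11427246), Ms4a4b (11443553 to 11467055), Ms4a6c (11469366 to 11482192), Ms4a6b (11516512 to 11531256) and Ms4a4d (11536801 to 11558467). The 250 bases before a RefSeq start of 5 of these genes are shown because they form the pairs that the values below compare: Ms4a6c and Ms4a6b kept a near constant ratio, Ms4a4c fell while Ms4a4b did not pass, and Ms4a4d differed from its neighbours in its values. The sequences come from RefSeq (GRCm38.p6), run 5′ to 3′ on the plus strand, and lie at chr19:11469118-11469367 for Ms4a6c, chr19:11518309-11518558 for Ms4a6b, chr19:11407411-11407660 for Ms4a4c, chr19:11443308-11443557 for Ms4a4b and chr19:11536544-11536793 for Ms4a4d. The RefSeq starts of Ms4a4c (11407661) and Ms4a6b (11518559) lie 2891 and 2047 bases inside the GENCODE gene spans given above, whose first transcripts begin earlier, so those 2 sequences precede a later start. Capitals mark motif matches: GAAANNGAA, the core of an interferon response element, in the first pair, GAGGAA, the core bound by the myeloid factor PU.1, in the second pair, and TTGCNNAA, a C/EBP motif read on the minus strand, in the last.
Ms4a6c: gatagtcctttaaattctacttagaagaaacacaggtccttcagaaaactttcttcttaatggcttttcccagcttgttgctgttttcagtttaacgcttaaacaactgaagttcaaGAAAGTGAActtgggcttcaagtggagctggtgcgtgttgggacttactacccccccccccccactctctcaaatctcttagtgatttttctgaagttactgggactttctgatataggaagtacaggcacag
Ms4a6b: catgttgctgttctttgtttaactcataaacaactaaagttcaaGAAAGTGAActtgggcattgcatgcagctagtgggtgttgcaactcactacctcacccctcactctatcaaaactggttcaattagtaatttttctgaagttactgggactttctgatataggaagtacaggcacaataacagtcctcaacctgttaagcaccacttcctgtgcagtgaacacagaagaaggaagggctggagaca
Ms4a4c: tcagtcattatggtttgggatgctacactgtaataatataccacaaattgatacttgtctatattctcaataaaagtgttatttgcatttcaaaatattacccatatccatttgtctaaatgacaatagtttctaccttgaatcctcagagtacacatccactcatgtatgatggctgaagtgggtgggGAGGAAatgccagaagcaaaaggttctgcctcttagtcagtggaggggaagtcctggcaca
Ms4a4b: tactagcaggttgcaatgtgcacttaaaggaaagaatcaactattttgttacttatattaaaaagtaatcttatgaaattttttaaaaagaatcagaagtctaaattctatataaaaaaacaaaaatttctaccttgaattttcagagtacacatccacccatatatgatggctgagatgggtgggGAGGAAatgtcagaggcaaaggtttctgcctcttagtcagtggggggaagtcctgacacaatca
Ms4a4d: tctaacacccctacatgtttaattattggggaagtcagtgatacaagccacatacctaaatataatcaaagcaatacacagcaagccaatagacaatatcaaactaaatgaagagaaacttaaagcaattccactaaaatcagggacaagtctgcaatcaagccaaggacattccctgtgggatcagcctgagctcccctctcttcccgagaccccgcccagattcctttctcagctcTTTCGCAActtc

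Of the 8 members, 7 matched the RefSeq promoter table, and Ms4a6d did not. Ms4a6c and Ms4a6b hold the same GAAAGTGAA, 133 to 125 bases before the start of Ms4a6c and 206 to 198 bases before that of Ms4a6b, and 85.1% of 175 aligned bases are identical between the promoters. Ms4a4c and Ms4a4b share a GAGGAA, at 61 to 56 and 64 to 59 bases before their starts, with 80.1% of 231 aligned bases identical. Both annotated starts of Ms4a7 also hold GAAANNGAA, and the promoter of Ms4a4a holds none of the 5 motifs searched. On both strands, GAAANNGAA is in 7.13% of 32851 mouse promoters of this length, GAGGAA in 23.3% and TTGCNNAA in 9.56%. TGANTCA (AP-1), in 6.75% of promoters, occurs at 1 start of Ms4a7, and TTCNNNGAA (STAT), in 7.02%, at none of the members. No 2 of these motifs overlap at a match, and a match is only a description of letters.

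In the control tissue, MS4A expression was dominated by Ms4a6d, Ms4a6c and Ms4a7. Levels are given as FPKM, a unit corrected for gene length and library size, so genes can be compared per length. The 7 members summed to 650, 645 and 609 FPKM in Empty-lip 1, 2 and 3. The order Ms4a6d, Ms4a6c, Ms4a7, Ms4a6b, Ms4a4c, Ms4a4d, Ms4a4b held in each of the 3 Empty-lip libraries, with no overlap between neighbours in that order. In Clod-lip, the ranges of Ms4a6d, Ms4a7 and Ms4a6c overlapped one another, as did those of Ms4a4d and Ms4a4c. Those of Ms4a6c (down to 53.3 FPKM) and Ms4a6b (up to 53.5 FPKM) overlapped narrowly. In Clod-lip 1, 2 and 3 the sum was 272, 461 and 243 FPKM, and its mean was 51.2% of that in Empty-lip (325 ± 118 against 635 ± 22.4 FPKM, SD, n = 3 libraries each).

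Of the 7 members, Ms4a4c, Ms4a6b and Ms4a6d fell in Clod-lip by limma on log2(FPKM + 1), with a Benjamini-Hochberg threshold of 0.05 over the whole table. These 3 calls stand beside 1.21% of 13408 genes called lower and 4.05% called in either direction, shares that are given for scale only because this contrast chose the members. For 5 members every Clod-lip library lay below every Empty-lip library, as it did for 13.4% of the genes tested. The authors' deposited table called 5 of the 6 members it tested lower in Clod-lip, each with a q-value of 0.000928, against 5.41% of 10783 genes. The median log2 change of the 7 members was -1.05, and that of all genes tested was -0.01. Whether each library is its own mouse is not stated in the labels, and the p-values thus speak of library spread only, which may be technical. In bulk tissue fewer cells of a type and less RNA per cell cannot be told apart.

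**Figure D1:**
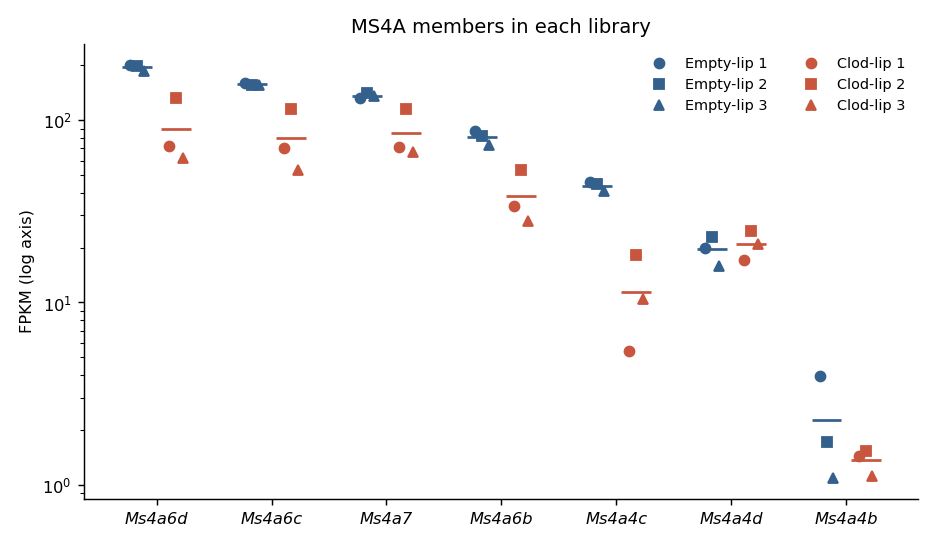
FPKM of the 7 measured members (log axis) in each of the 6 libraries, with a horizontal line at each group's mean. The 5 members with no overlap between groups are Ms4a6d, Ms4a6c, Ms4a7, Ms4a6b and Ms4a4c, and Clod-lip 2 (square) is the highest Clod-lip library for all 7.

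The Ms4a6 genes encode 3 close mouse relatives of human MS4A6A, a myeloid protein of the same family. Ms4a6d, whose product pairs with the complement receptor Vsig4 in mouse macrophages, stood at 202, 199 and 186 FPKM in Empty-lip 1, 2 and 3 and at 72.3, 133 and 62.0 FPKM in Clod-lip 1, 2 and 3. All Clod-lip libraries lay below all Empty-lip libraries, with Clod-lip 2 nearest to them. Ms4a6d fell to 45.5% of its control mean (log2 change -1.21 ± 0.25 SE, limma adjusted p = 0.0440).

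Ms4a6b stood at 87.2, 82.0 and 72.8 FPKM in the Empty-lip libraries and at 33.9, 53.5 and 28.1 FPKM in the Clod-lip libraries. Again the groups did not overlap and Clod-lip 2 was the highest of its group. Ms4a6b fell to 47.7% of its control mean (log2 change -1.10 ± 0.21 SE, limma adjusted p = 0.0379).

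Ms4a6c had the most even control values of the family, at 160, 156 and 156 FPKM, and stood at 70.7, 115 and 53.3 FPKM in Clod-lip. The groups did not overlap, yet the difference did not pass by limma (50.5% of the control mean, log2 change -1.05 ± 0.24 SE, adjusted p = 0.0559). The authors' table called it. Of the 50-base windows of its reference transcript, 55.4% also occur in transcripts read from the opposite strand, among them BE692007, an antisense gene whose exons overlap those of Ms4a6c. Antisense genes overlap exons of Ms4a4c (Gm5692) and Ms4a6b (Gm19261) as well. The labels do not say whether reads were counted by strand, so sense and antisense reads cannot be told apart in these values.

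The 3 Ms4a6 genes kept their proportions better than their levels. Ms4a6b was 0.513 ± 0.042 times Ms4a6c in Empty-lip and 0.491 ± 0.032 times in Clod-lip (SD, n = 3), and the libraries of the groups overlapped. The ratio of Ms4a6b to Ms4a6d was 0.412 ± 0.021 in Empty-lip and 0.442 ± 0.034 in Clod-lip, also with overlap. Ms4a6c to Ms4a6d gave 0.806 ± 0.030 and 0.900 ± 0.067, with no overlap. Between 2.92% and 6.08% of the 50-base windows of these 3 transcripts are shared with another MS4A gene, so a small part of their reads could be assigned to either.

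Ms4a7 is expressed by macrophages in the mouse. It stood at 132, 140 and 136 FPKM in Empty-lip and at 71.0, 116 and 67.0 FPKM in Clod-lip. The groups did not overlap, and the gap from Clod-lip 2 to the lowest control was narrow. The difference did not pass by limma (62.1% of the control mean, log2 change -0.72 ± 0.19 SE, adjusted p = 0.0800), while the authors' table called it. Its transcript shares no 50-base window with another gene.

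Among the Ms4a4 genes, Ms4a4c had the largest difference of the 7 members and the others did not pass. Ms4a4c, which in mouse immune cells is among the transcripts induced by interferon, stood at 45.8, 44.4 and 40.7 FPKM in Empty-lip and at 5.41, 18.2 and 10.4 FPKM in Clod-lip. The highest Clod-lip library was below the lowest Empty-lip library. Its mean in Clod-lip was 26.0% of that in Empty-lip (11.3 ± 6.44 against 43.6 ± 2.64 FPKM), and the call had an adjusted p of 0.0280 by limma (log2 change -1.99 ± 0.34 SE). Of its 50-base windows, 8.48% are shared with another MS4A gene, mostly Ms4a4b, which at 1.09 to 3.97 FPKM over the 6 libraries was far lower.

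Ms4a4d was the member whose groups lay closest together. It stood at 19.97, 22.8 and 15.9 FPKM in Empty-lip and at 17.1, 24.7 and 20.95 FPKM in Clod-lip. The groups overlapped, with Clod-lip 2 highest and Empty-lip 3 lowest of all 6 libraries, and the log2 change was 0.09 ± 0.17 SE (limma adjusted p = 0.805, q = 0.851 in the authors' deposited table). Its sign turned negative in 3 of 15 alternative settings.

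Ms4a4b, which in mouse T cells modulates the costimulatory receptor GITR, stood at 3.97, 1.71 and 1.09 FPKM in Empty-lip and at 1.44, 1.53 and 1.11 FPKM in Clod-lip. Empty-lip 1 alone was high, the groups overlapped, and the log2 change was -0.37 ± 0.31 SE (limma adjusted p = 0.544). The authors did not test it. Of 9 T and NK cell markers tested, 1 fell by limma, Thy1. The authors tested only Il7r and Thy1 of the list, and their deposited table called 0. The list summed to 105 to 114 FPKM in the controls against 82.9 to 91.7 FPKM in Clod-lip, and without Thy1, which made up most of it, to 23.9 to 27.6 against 18.7 to 25.6 FPKM, with overlap.

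The make-up of MS4A expression was unlike between the groups, with shares that did not overlap for Ms4a4c, Ms4a4d, Ms4a6d and Ms4a7. Ms4a4c made up 6.86 ± 0.18% of the summed FPKM of the members in Empty-lip and 3.41 ± 1.24% in Clod-lip. Ms4a4d made up 3.07 ± 0.46% and 6.76 ± 1.68%, and the pair changed places, with Ms4a4c above Ms4a4d in all 3 Empty-lip libraries and below it in all 3 Clod-lip libraries. Ms4a7 took 21.5 ± 1.04% of the sum in Empty-lip and 26.3 ± 1.23% in Clod-lip and stood above Ms4a6c in each Clod-lip library, as it did in no Empty-lip library. The margin over Ms4a6c was small in Clod-lip 1 (71.0 against 70.7 FPKM) and Clod-lip 2 (115.8 against 114.5 FPKM). It was wider in Clod-lip 3 (67.0 against 53.3 FPKM). In Clod-lip 3 Ms4a7 also stood above Ms4a6d. Ms4a6d took 30.8 ± 0.21% and 27.0 ± 1.66%, while Ms4a6c, at 24.8 ± 0.80% and 24.3 ± 2.09%, had overlapping shares.

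**Figure D2:**
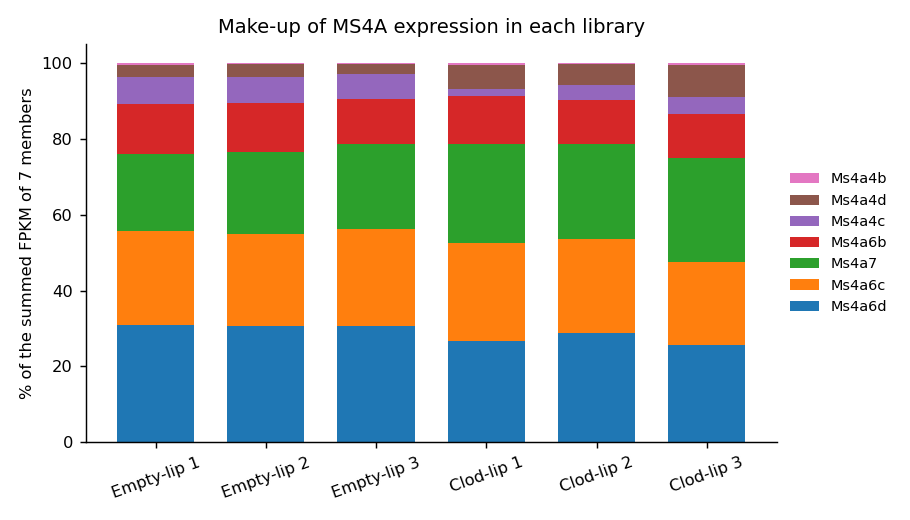
Stacked bars of each member's percentage of the summed FPKM of the 7 members, by library. The Ms4a4c band narrows from about 6.86% in Empty-lip to 3.41% in Clod-lip on average while the Ms4a4d band widens from 3.07% to 6.76%.

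Neighbours in the cluster had unlike values. Ms4a4d lies between Ms4a6b and Ms4a6d, which both fell, and Ms4a4b between Ms4a4c and Ms4a6c. Gm8369, the only other gene between the outer members in the table, was between 0 and 0.554 FPKM. The 5 nearest genes on the side of Ms4a7 stood at 0.776 FPKM or less in every library, among them Ms4a1, which encodes CD20. On the side of Ms4a6d, Ms4a2 stood at 0.259 FPKM or less. Next to it, Ms4a3, described below, stood at 0 to 2.79 FPKM, with every Clod-lip library above every Empty-lip library. The farther genes Plac1l, Oosp1 and Gm97 were listed at 0 in all libraries. The MS4A genes expressed above 10 FPKM in some library were thus members only.

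**Figure D3:**
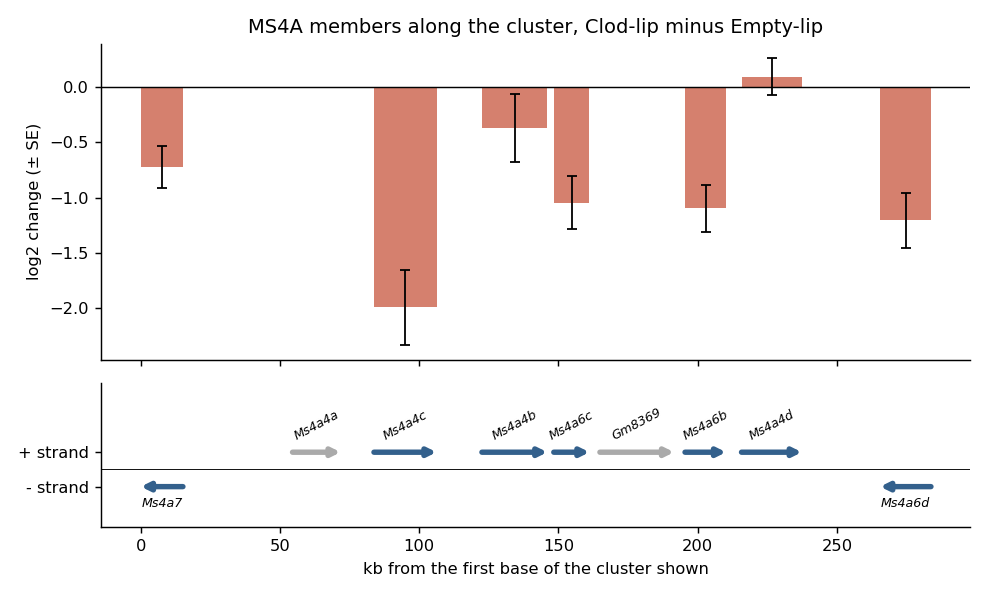
Upper panel: log2 change of log2(FPKM + 1), Clod-lip minus Empty-lip, with SE, drawn over the extent of each measured member; lower panel: genes by strand, in kb from the first base of Ms4a7, with members measured in blue and Ms4a4a and Gm8369, which have no bar, in grey. Ms4a4d (0.09) stands between Ms4a6b (-1.10) and Ms4a6d (-1.21).

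Pairs of members with alike proteins differed in how far apart their changes lay. Translated from the reference transcripts, the measured members have 217 to 267 residues. The 6 pairs within the Ms4a4 or the Ms4a6 group were 64.95% to 84.5% identical over aligned residues, and the 15 other pairs 27.5% to 37.8%. Ms4a4b and Ms4a4c, the most alike pair at 84.5%, had log2 changes 1.62 apart, and Ms4a4c and Ms4a4d, at 75.6%, were 2.08 apart, the widest gap of all 21 pairs. Ms4a4b and Ms4a4d, at 70.2%, were 0.46 apart. At 1.09 to 3.97 FPKM, Ms4a4b is low enough that the 1 added to FPKM before the log makes its change look smaller. Its log2 change was -0.37 in the main fit and -0.51 with 0.1 added instead, so its gaps depend on this setting. Within the Ms4a6 group, Ms4a6b and Ms4a6c (72.9% identical) differed by 0.05, Ms4a6b and Ms4a6d (71.3%) by 0.11 and Ms4a6c and Ms4a6d (64.95%) by 0.16. These are gaps between fitted changes of the same 6 libraries and were not tested.

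**Figure D4:**
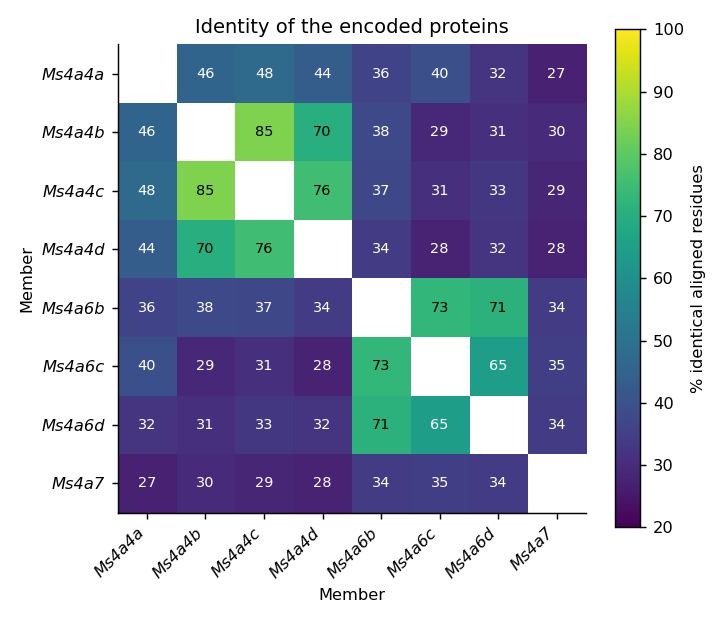
Percentage of identical residues in pairwise alignments of the 8 encoded proteins, Ms4a4a included, as a colour and a rounded number in each cell. A block of Ms4a4b, Ms4a4c and Ms4a4d and a block of Ms4a6b, Ms4a6c and Ms4a6d stand out at 64.95% to 84.5%.

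The 3 Clod-lip libraries were not alike. Clod-lip 2 was the highest Clod-lip library for all 7 members. Relative to the Empty-lip mean, on the log2(FPKM + 1) scale, Ms4a6d differed by -1.42, -0.55 and -1.64 in Clod-lip 1, 2 and 3, and Ms4a7 by -0.93, -0.23 and -1.01. Ms4a4c differed by -2.80, -1.22 and -1.96, so that its lowest library was Clod-lip 1, whereas Clod-lip 3 was lowest for Ms4a6b, Ms4a6c, Ms4a6d and Ms4a7. The coefficient of variation of the 5 members without overlap ran from 1.45% to 9.02% in Empty-lip and from 32.0% to 56.7% in Clod-lip.

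The same libraries differed in the markers of other cells. The median difference of 18 interferon response genes was -1.996, -0.66 and -1.64 in Clod-lip 1, 2 and 3, and 9 of the 18 fell. That of 17 macrophage markers was -0.63, -0.24 and -0.65, and 3 fell by limma, namely Mrc1, Mertk and Fcgr1. That of 8 classical monocyte markers was -0.84, -0.16 and -0.64, and 2 fell by limma, Ccr2 and Plac8. All 18 interferon response genes, 16 of the macrophage markers and all 8 monocyte markers had negative log2 changes. An unadjusted p under 0.05 was found for 17, 12 and 5 of them, beside 21.8% of all genes tested. The authors' deposited table called 18, 11 and 6 of them, beside 12.2% of the genes it tested. The 7 markers of patrolling monocytes went both ways and 0 passed by limma, with a median change of -0.54 and sums of 74.7 to 85.6 FPKM in Empty-lip and 84.9 to 104.6 FPKM in Clod-lip. An unadjusted p under 0.05, which 21.8% of all genes tested had, was found for 3 of them, Nr4a1 (log2 change 1.20) and Ace (0.38), both higher in every Clod-lip library, and Itgal (-0.55). The authors' deposited table called these 3 and Cx3cr1 (-0.54), beside 12.2% of the genes it tested in either direction. No marker of any of these lists was at 0 in all libraries, and which of these cells carried the MS4A transcripts was not tested.

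**Figure D5:**
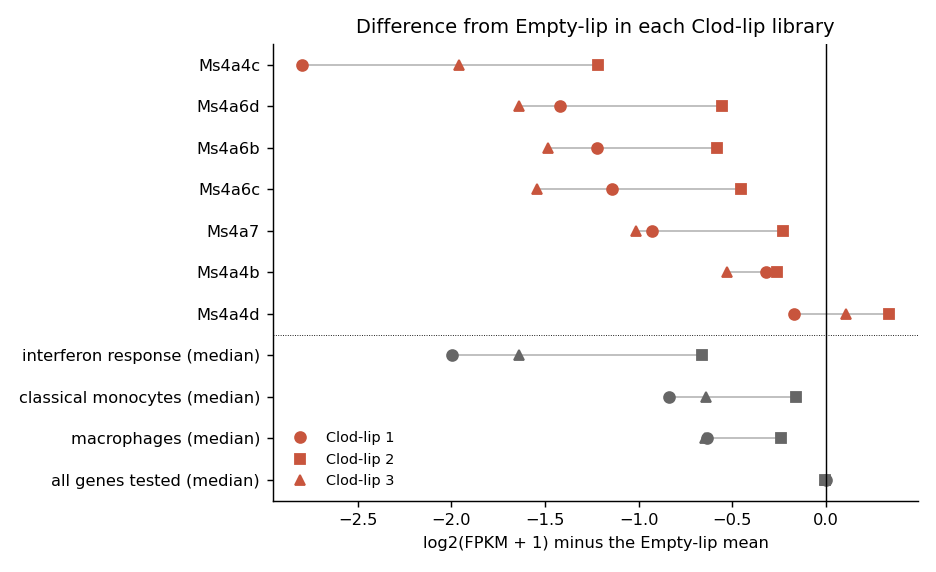
Difference of log2(FPKM + 1) from the Empty-lip mean in Clod-lip 1, 2 and 3 for each member, and the median of the same over 18 interferon response genes, 8 classical monocyte markers, 17 macrophage markers and all genes tested. Clod-lip 2 (square) has the highest value of the 3 libraries for every member, from -1.22 for Ms4a4c to 0.34 for Ms4a4d.

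Most skeletal muscle markers and some neutrophil markers rose in Clod-lip. The 12 skeletal muscle genes had sums of 10307 to 13914 FPKM in the controls against 22075 to 24154 FPKM in Clod-lip, and 11 rose. Of 10 neutrophil markers tested, 5 rose by limma, namely Mpo, Elane, Ngp, Camp and Ltf. S100a8 (log2 change 0.95), S100a9 (1.06), Retnlg (1.18), Cxcr2 (-0.00054) and Csf3r (-0.27) did not pass by limma. The authors' deposited table called 7 of the 10, beside 12.2% of the genes it tested. These were S100a8, S100a9, Retnlg, Mpo, Ngp, Camp and Ltf, and it did not call Elane (q = 0.814 there). The sums were 522 to 1322 FPKM in Empty-lip and 905 to 3438 FPKM in Clod-lip, with overlap. The highest sum was in Clod-lip 2, mostly from S100a8 (1608 FPKM) and S100a9 (1520 FPKM). Markers of B cells (sums of 3.97 to 5.52 against 6.35 to 7.75 FPKM), mast cells (32.1 to 43.2 against 35.9 to 61.6 FPKM) and dendritic cells (17.6 to 24.8 against 14.7 to 18.4 FPKM) gave 0 calls by limma among 2, 8 and 7 tested. Of these 1, 1 and 2 had an unadjusted p under 0.05, beside 21.8% of all genes: Cd79a and Mcpt4 with higher values in Clod-lip, and the dendritic cell markers Cd209a (log2 change -0.95) and Itgax (-0.51) with lower ones. The authors' deposited table called the last 2. The part of these tissue differences in the MS4A values was not tested. Small RNA genes took 39.1% to 47.7% of all FPKM in Empty-lip and 32.7%, 0.193% and 0.102% in Clod-lip 1, 2 and 3. With each library rescaled without them the log2 change of Ms4a6c was -1.04 and passed (limma adjusted p = 0.0369). Ms4a6c also passed with a filter at 5 FPKM (limma adjusted p = 0.0484) and after quantile normalization (limma adjusted p = 0.0479).

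Set against single genes of these cells, the members gave different ratios. Against Csf1r, the receptor that keeps macrophages alive, the ratio of Ms4a7 was 0.918 ± 0.039 in Empty-lip and 0.731 ± 0.050 in Clod-lip, and that of Ms4a6d was 1.32 ± 0.055 and 0.754 ± 0.116. Neither overlapped between groups. Against C1qa, a complement gene of tissue macrophages, Ms4a7 gave 0.228 ± 0.013 and 0.207 ± 0.014, with overlap.

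Against Ccr2, the chemokine receptor of classical monocytes, Ms4a6d gave 2.83 ± 0.310 and 3.17 ± 0.349, with overlap, and Ms4a7 gave 1.97 ± 0.197 and 3.08 ± 0.017, without. Against Oas1a, an antiviral gene induced by interferon, Ms4a4c gave 1.43 ± 0.046 and 1.17 ± 0.453, with overlap, while the ratio of Ms4a6d to Oas1a was 6.39 ± 0.261 and 9.36 ± 1.96, without. Of the 6 members above a mean of 5 FPKM and these 4 genes, the pairs that overlapped between groups were Ms4a4c with Oas1a, Ms4a6c with Ccr2, Ms4a6d with Ccr2 and Ms4a7 with C1qa. All of these genes come from the same 6 libraries, and the ratios are a description.

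The members also varied together around their group means to different degrees. With each group's mean removed, Pearson's r of log2(FPKM + 1) over the 6 libraries was 0.93 to 0.98 among Ms4a6b, Ms4a6c, Ms4a6d and Ms4a7, and 0.60 to 0.78 between these and Ms4a4c. For Ms4a4d with these 4 genes it was 0.41 to 0.59, and with Ms4a4c 0.77. For the 5 members without overlap, the spread lay mostly in Clod-lip (coefficient of variation 32.0% to 56.7%, against 1.45% to 9.02% in Empty-lip). Within Empty-lip, Ms4a7 was lowest in library 1 (132 FPKM), where Ms4a6d (202 FPKM) and Ms4a6b (87.2 FPKM) were highest. These values of r share libraries and tissue make-up and describe 6 points only.

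Among 9421 genes of at least 5 FPKM, those most like Ms4a4c over the 6 libraries were Msn (r = 0.996), Trim30d (0.996) and Slfn8 (0.995). For Ms4a6d they were Tgfbi (0.997), Samhd1 and Rab3il1, and Rab3il1 was among the nearest 3 of Ms4a6b and Ms4a6c as well. Gnpda1 led for Ms4a6c and Fkbp8 for Ms4a6b, and Limd2, Dapp1 and Tpd52 were nearest to Ms4a7. Tgfbi, an extracellular matrix protein secreted by macrophages among other cells, stood at 251, 270 and 244 FPKM in Empty-lip and at 99.7, 184 and 92.9 FPKM in Clod-lip, the order of libraries within Clod-lip being that of Ms4a6d. Ms4a4d was nearest to Zfp825, Man2c1 and 0610007N19Rik, and Ms4a4b to Psma3, Ascc1 and Dtwd1. With group means removed, the nearest genes were Akna and Cebpd for Ms4a4c, Slc11a1 and Lst1 for Ms4a6d, Arap1 for Ms4a6b, Arf5 and Gnpda1 for Ms4a6c, Poldip3 and Limd2 for Ms4a7, Ethe1 and Nhlrc3 for Ms4a4d, and Atg9a and Syngr2 for Ms4a4b. With this many candidates and 6 libraries, high values of r are found for any gene.

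The rest of the family was low. Of 9 other MS4A genes in the table, Ms4a5, Ms4a13, Ms4a15 and Ms4a18 were listed at 0 in all libraries and 2 reached the mean of 0.5 FPKM needed for testing. Ms4a8a stood at 6.58, 6.16 and 3.90 FPKM in Empty-lip and at 1.38, 3.30 and 3.66 FPKM in Clod-lip. The groups did not overlap, and the difference did not pass (log2 change -0.83 ± 0.29 SE, limma adjusted p = 0.148). Ms4a3, a marker of granulocyte and monocyte progenitors, stood at 0.397, 0 and 1.06 FPKM in Empty-lip and at 2.24, 2.79 and 1.08 FPKM in Clod-lip. It was the single family member with every Clod-lip library above every Empty-lip library, by a margin of Clod-lip 3 over Empty-lip 3 that was small, and it did not pass (log2 change 1.05 ± 0.32 SE, limma adjusted p = 0.114). The neutrophil markers given above had their highest sum in Clod-lip 2 as well, mostly from S100a8 and S100a9. These 2 did not pass by limma and were called in the authors' deposited table. Of the 5 that rose by limma, Mpo and Ltf were highest in Clod-lip 2. Elane, Ngp and Camp were highest in Clod-lip 3, the Clod-lip library lowest for Ms4a3. The part of these markers in the value of Ms4a3 was not tested. The related Tmem176a and Tmem176b, intracellular channel proteins encoded on chromosome 6, had log2 changes of -0.31 and -0.21 with overlapping groups (limma adjusted p = 0.234 and 0.406).

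Of 8 genes for reported partners of MS4A proteins, 0 passed by limma and 3 had an unadjusted p under 0.05 (21.8% of all genes tested). The authors' deposited table called 1 (12.2% of all genes it tested), and Vsig4, Tnfrsf18 and Fcer1a were not tested there. The 3 with an unadjusted p under 0.05 were Fcer1g and Trem2, with lower values in Clod-lip, and Tnfrsf18, with higher ones. Fcer1g, the common signalling chain of Fc receptors, stood at 475, 552 and 512 FPKM in Empty-lip and at 300, 462 and 284 FPKM in Clod-lip. The groups did not overlap (log2 change -0.59 ± 0.18 SE, limma adjusted p = 0.112), and the authors' deposited table called it with a q-value of 0.000928. Trem2 stood at 120, 160 and 156 FPKM in Empty-lip and at 119, 119 and 114 FPKM in Clod-lip, a log2 change of -0.29 ± 0.12 SE (limma adjusted p = 0.199). Clec7a, which encodes Dectin-1, stood at 16.6, 15.2 and 17.9 FPKM in Empty-lip and at 17.8, 25.2 and 18.2 FPKM in Clod-lip, with overlapping groups (log2 change 0.27, adjusted p = 0.323). Vsig4 was at 0.495 to 2.38 FPKM over the 6 libraries, far below Ms4a6d. Cd74, the invariant chain, had a log2 change of -0.38 with overlap, and Fcer1a and Kit were at 5.11 FPKM or less in every library. Tnfrsf18, which encodes GITR, stood at 1.60, 0.497 and 0 FPKM in Empty-lip and at 1.88, 1.61 and 1.81 FPKM in Clod-lip, so that every Clod-lip library was above every Empty-lip library (log2 change 0.81 ± 0.32 SE, limma adjusted p = 0.199).

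The calls rested on few libraries. Without Clod-lip 2, 5 of the 7 members were called lower (Ms4a4c, Ms4a6b, Ms4a6c, Ms4a6d and Ms4a7), and without any single other library, Empty-lip or Clod-lip, 0 were called by limma. Ms4a4c then had limma adjusted p-values of 0.0545 to 0.125. The 5 members without overlap had an unadjusted p under 0.05 in each of these fits, and Ms4a4b and Ms4a4d in none, while between 15.9% and 25.8% of all genes had one, depending on the library left out.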

How the data were processed

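RNA was sequenced from 6 libraries of repair tissue, grouped by their titles, 3 Empty-lip and 3 Clod-lip. Per the submitters' processing notes TopHat and build mm10 were used, and which tool gave the values is not given in the sources used here. Deposited values are the authors' FPKM per library for 23351 genes with the authors' own comparison, a p-value and q-value per gene. Calls from it are credited to the authors' deposited table. Read counts were not used, so depth is unknown. One line of the table had been emptied. Members and gene lists were chosen with earlier results of these data known.

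Differences were fitted with limma 3.58.1 under R 4.3.3, using log2(FPKM + 1) and a variance trend. The 13408 genes averaging 0.5 FPKM or more were tested, with Benjamini-Hochberg adjustment over all of them at 0.05. The pseudocount makes changes of low genes look smaller. The fit was tested on simulated data. Correlations between libraries were 0.950 to 0.977. Replicate numbers were not used as pairs, because the labels do not say that a number is shared between groups. With group means removed, same-numbered libraries had r of -0.08, -0.04 and 0.08. With 3 libraries per group, this cannot show whether they were paired. Positions, transcripts and translated proteins come from GENCODE M21, aligned with Biopython 1.88, and promoters from RefSeq GRCm38.p6. Named genes were all members, all other MS4A rows, Tmem176a and Tmem176b, 8 reported partners, the 5 nearest genes on either side of the cluster and the genes with the highest correlation to each member, of which 1 is not reported here. Alternatives were a replicate block, no filter, a filter at 5 FPKM, pseudocounts of 0.5 and 0.1, rescaling without small RNA genes, quantile normalization, no trend, and libraries left out.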

Additional observations from a re-analysis of the deposited data

How the results depend on the processing

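Ms4a4c, Ms4a6b and Ms4a6d kept a negative log2 change in all 15 alternative settings and were called in 9, 7 and 7 of them. The 3 members called became 0 with a replicate block, 1 with no filter, 1 with limma without trend, 5 with Empty-lip 1 and Clod-lip 2 both left out, and 0 to 5 with 1 library left out. With a filter at 5 FPKM, rescaling without small RNA genes or quantile normalization 4 were called, Ms4a6c being the one added. Both other pseudocounts left the number at 3. Genes called among all tested went from 543 to 170 with the replicate block, 312 with no filter, 284 without trend, 1101 with both libraries left out, and 2 to 1392 with 1 left out; the high count was without Clod-lip 2 and the low one without Empty-lip 2. The replicate block gave limma adjusted p-values of 0.0501 for Ms4a4c and 0.0519 for Ms4a6d. The cause was not tested.

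Uncalled genes near no change turned sign. With 1 library left out, log2 changes ran from -0.041 to 0.22 for Ms4a4d, -0.53 to 0.055 for Vsig4, -0.21 to 0.57 for Fcer1a and -0.24 to 0.16 for Kit. Ms4a4d was at -0.0084 with both libraries left out and Kit at -0.032 after quantile normalization. Without counts, the precision of low values such as Ms4a4b is unknown.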
